A study of Mus musculus with 8 samples.

Results

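The 8 genes described here encode transcription factors that act in pancreatic acinar cells, the exocrine cells that make digestive enzymes. They were chosen by name, for their known roles in these cells, and are 8 of 55487 gene identifiers measured in mouse islets with and without insulin-degrading enzyme (IDE), a protease that cleaves insulin. Ptf1a, Rbpjl, Bhlha15 and Nr5a2 were grouped as acinar-restricted factors, Rbpj and Tcf3 as broadly made partners, and Gata4 and Gata6 as a pair of related GATA factors. Each gene matched 1 identifier, and all 8 passed the filter on low counts. RNA was sequenced from islets picked by hand, in 3 Ide-/- and 5 Ide+/+ samples of strain C57BL/6J. Both genotypes ate a diet with 60 kcal% fat for 2 weeks from 10 weeks of age, so that no animal on another diet enters the comparison. All samples are labelled female, and the labels do not say how the Ide allele was made or how many animals gave each islet sample. The samples are called biological replicates, but nothing in the labels ties them to separate animals, so p-values may cover no more than the spread from sample to sample.

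In acinar cells PTF1A, a basic helix-loop-helix protein, binds E-box DNA together with an E protein such as TCF3 or TCF12. A further subunit of this PTF1 complex contacts the RBPJ core motif beside the E-box. That subunit is RBPJ, the DNA-binding protein of Notch signalling, in early pancreas and its acinar relative RBPJL in mature acinar cells. NR5A2, an orphan nuclear receptor, binds many of the same enzyme genes, and BHLHA15 (MIST1) scales up the secretory apparatus of acinar cells and of plasma cells. GATA4 and GATA6 are zinc finger proteins that build the pancreas in the embryo, and GATA6 is also made in adult islets.

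The stretch upstream of the first base of each acinar-restricted factor is shown because the proteins of this group are known to act on shared targets, and its members had different fold changes. Sequences are from RefSeq windows on GRCm38.p6, which were found for 6 of the 8 genes, and are trimmed to the bases before every annotated transcript start. They are written 5′ to 3′ on the strand of the gene. Capitals mark matches to an E-box (CANNTG), the RBPJ core (TGGGAA), a core for NR5A2 (CAAGGNCA) or a GATA motif (AGATAA), searched on both strands. The Ptf1a stretch is chr2:19445413-19445662 on the plus strand, that of Rbpjl is chr2:164402944-164403140 on the plus strand, that of Bhlha15 is chr5:144190036-144190285 on the plus strand, and that of Nr5a2, from its most upstream start, is chr1:136960449-136960698 on the minus strand.
Ptf1a: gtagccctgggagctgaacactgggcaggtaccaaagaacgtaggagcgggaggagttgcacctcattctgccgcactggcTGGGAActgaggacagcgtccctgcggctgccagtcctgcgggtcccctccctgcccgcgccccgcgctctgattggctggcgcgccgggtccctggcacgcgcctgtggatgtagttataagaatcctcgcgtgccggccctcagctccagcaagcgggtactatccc
Rbpjl: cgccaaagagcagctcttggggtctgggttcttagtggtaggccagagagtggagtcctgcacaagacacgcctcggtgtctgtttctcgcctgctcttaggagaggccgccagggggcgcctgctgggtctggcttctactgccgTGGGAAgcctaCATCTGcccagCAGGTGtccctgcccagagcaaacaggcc
Bhlha15: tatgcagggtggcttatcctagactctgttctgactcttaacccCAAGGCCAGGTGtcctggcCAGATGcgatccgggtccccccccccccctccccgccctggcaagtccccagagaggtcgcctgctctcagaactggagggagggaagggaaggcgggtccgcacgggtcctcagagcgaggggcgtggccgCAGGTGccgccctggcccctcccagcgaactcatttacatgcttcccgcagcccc
Nr5a2: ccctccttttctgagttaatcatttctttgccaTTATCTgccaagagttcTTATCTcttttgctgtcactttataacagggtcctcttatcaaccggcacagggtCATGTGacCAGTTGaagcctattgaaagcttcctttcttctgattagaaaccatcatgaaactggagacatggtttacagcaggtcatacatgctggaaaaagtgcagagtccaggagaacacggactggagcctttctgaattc

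Rbpjl held an RBPJ core at −104 from its RefSeq start, followed by an E-box CATCTG at −93 and an E-box CAGGTG at −82. An E-box and an RBPJ core in the 250 bases before the start, at any distance, occurred in 14.8% of all 32851 windows. With the E-box starting 11 or 22 bases from the core, a spacing looked for only after the Rbpjl window had been seen, the share was 0.664%. That spacing was also found in 2 of 21 windows of acinar enzyme genes. A GATA motif of the Rbpjl window lies in bases not shown. Ptf1a held an RBPJ core at −169 and no E-box in the stretch shown. Bhlha15 held 3 E-boxes, of which CAGGTG at −200 overlaps the NR5A2 core CAAGGCCA at −206. Nr5a2 held GATA motifs at −217 and −200 and E-boxes at −145 and −137. By itself, an E-box was found in 66.2% of windows, the RBPJ core in 21.6%, the GATA motif in 9.99% and the NR5A2 core in 5.53%. These are matches of letters and not sites shown to be bound.

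Levels are given as CPM, counts out of 1000000 after TMM scaling, which sets libraries to a common level by the middle of their gene ratios. TPM also divides by transcript length and serves to compare genes with each other. The libraries held 7143415 to 17445935 counts in Ide-/- and 19277269 to 33371642 in Ide+/+, so that a count of 0 in the shallowest library, Ide-/- replicate 3, allows up to 0.275 CPM (3 counts). This limit, like the intervals below, covers counting error only. Ide itself had 4 to 7 counts in Ide-/- libraries and 256 to 765 in Ide+/+ libraries. The summed counts of 28 acinar enzyme genes made up 0.796%, 1.64% and 1.78% of the Ide-/- libraries, against 45.6%, 26.3%, 26.7%, 42.1% and 42.1% of the Ide+/+ libraries 1 to 5. Islet hormone genes were abundant in all libraries, at a summed 137117 to 147147 CPM in Ide-/- and 97611 to 178697 CPM in Ide+/+. Ide+/+ replicate 1 stood apart, with 692 counts of the female transcript Xist and 0 of the Y-linked Ddx3y, whereas the other 7 libraries had at most 11 and at least 503, against the label of those 7, so that only Ide+/+ held both patterns. Mitochondrial transcripts took 0.512% of that library, against 4.92% to 28.2% of the others. Ide+/+ replicates 2 and 3 were closer to each other than any other pair of one group (chi-square per degree of freedom 5.64, against 55.6 or more) but differed by more than sampling noise, and both were kept. In bulk tissue, fewer cells of a type and less RNA per cell cannot be told apart.

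Of the 8 factors, 5 were lower in Ide-/- islets and 0 were higher by edgeR's quasi-likelihood test at an adjusted p under 0.05 (0 higher also at an unadjusted p under 0.05, by DESeq2 and by limma-voom). Across all 16266 tested genes 21.1% were called, 10.6% lower and 10.4% higher. All 4 acinar-restricted factors and Gata4 made up the lower ones, and Rbpj, Tcf3 and Gata6 were not called. The same 5 factors had Ide-/- values below every Ide+/+ value, which held for 15.6% of tested genes (33% had groups apart in either direction). Without Ide+/+ replicate 1 the same 5 were lower, with log2 fold changes of −7.01 for Ptf1a, −5.42 for Rbpjl, −3.77 for Gata4, −3.15 for Nr5a2 and −1.35 for Bhlha15. Ptf1a and Gata4 had passed the low-count filter mainly through Ide+/+ libraries: Ptf1a reached the filter's level in 0 of 3 Ide-/- and 5 of 5 Ide+/+ libraries, and Gata4 in 1 of 3 and 5 of 5, so their calls add little to the count.

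**Figure D1:**
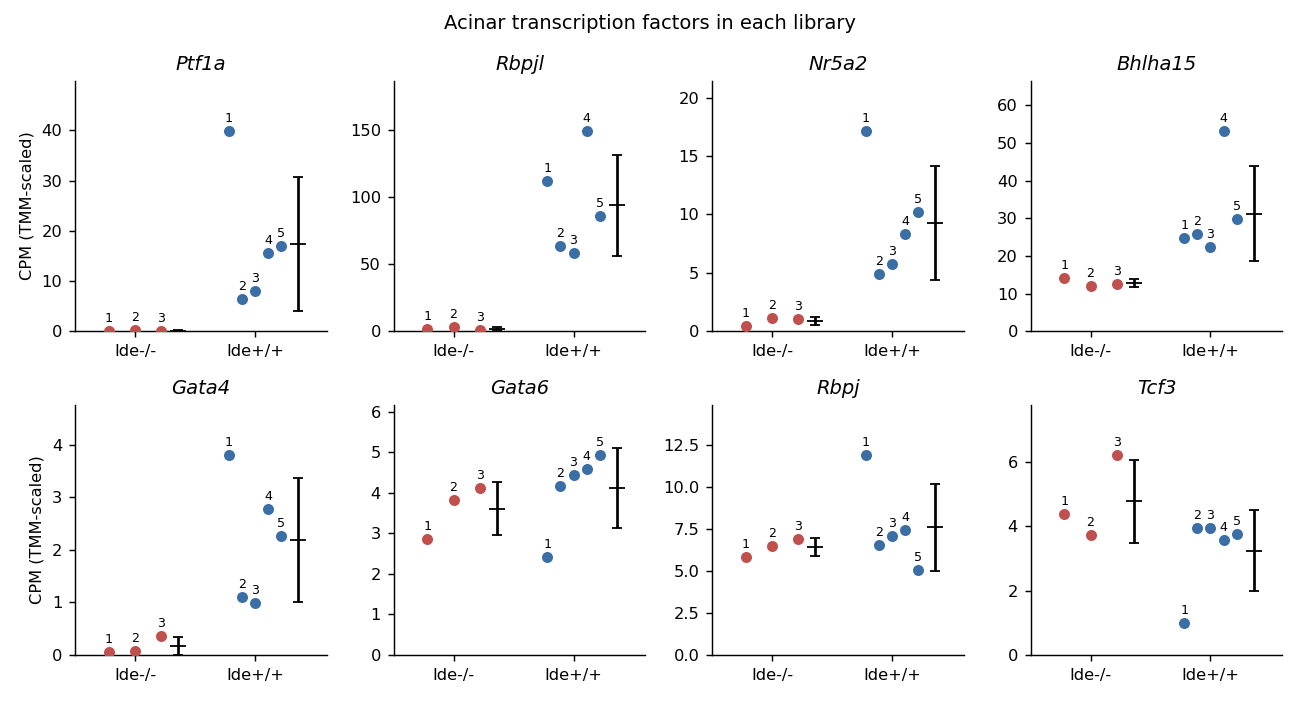
Level of each factor in CPM (TMM-scaled) in the 3 Ide-/- libraries (red, left) and the 5 Ide+/+ libraries (blue, right), with points numbered by replicate and bars giving the mean and SD, drawn no lower than 0. Ptf1a, Rbpjl, Nr5a2, Bhlha15 and Gata4 have all Ide-/- points below all Ide+/+ points, and Gata6, Rbpj and Tcf3 overlap.

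Ptf1a (ENSMUSG00000026735; GRCm38 chromosome 2, 19445663 to 19447501, plus strand), the founding subunit of the PTF1 complex, was close to absent from Ide-/- islets. It had 1, 5 and 0 counts in the Ide-/- libraries, or 0.0278, 0.203 and 0 CPM. Levels in the Ide+/+ libraries were 39.9, 6.49, 8.07, 15.6 and 16.95 CPM. Every Ide+/+ library was thus at least an order of magnitude above every Ide-/- library, and Ide+/+ replicate 1 was the highest. The means were 0.0771 ± 0.110 CPM in Ide-/- and 17.4 ± 13.4 CPM in Ide+/+ (SD, n = 3 and 5), and the log2 fold change was −7.57 (SE 0.90, edgeR adjusted p = 5.6e-04). With so few counts, the ratio of pooled counts gives the size more plainly: Ptf1a was 149-fold lower, with a counting interval (95%) of 68.5 to 408. The fold change ran from −9.31 without Ide-/- replicate 2, which held 5 of the 6 counts, to −6.91 without Ide-/- replicate 1.

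Rbpjl (ENSMUSG00000017007; chromosome 2, 164403141 to 164415448, plus strand), the acinar DNA-binding subunit that takes the place of RBPJ, fell as well but stayed measurable. It had 57, 83 and 11 counts in the Ide-/- libraries, or 1.59, 3.38 and 1.01 CPM. In the Ide+/+ libraries it had 112, 63.9, 58.2, 149 and 85.8 CPM. The lowest Ide+/+ library lay far above the highest Ide-/- library, and within Ide+/+ the levels spread 2.57-fold. The log2 fold change was −5.51 (SE 0.50, edgeR adjusted p = 2.0e-04), and pooled counts were 39.2-fold lower (95% counting interval 33.4 to 46.4). Without Ide-/- replicate 2 the fold change was −6.11.

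Rbpj (ENSMUSG00000039191; chromosome 5, 53466152 to 53657362, plus strand), the Notch effector that RBPJL replaces in acinar cells, did not follow its relative. Its levels were 5.82, 6.51 and 6.88 CPM in Ide-/- libraries and 11.9, 6.54, 7.07, 7.42 and 5.04 CPM in Ide+/+ libraries. The groups overlapped, and Ide+/+ replicates 1 and 5 were the highest and the lowest of the 8 libraries. Its log2 fold change was −0.25 (SE 0.26, edgeR adjusted p = 0.52), and it was −0.05 without Ide+/+ replicate 1. Reads of the processed pseudogene Rbpj-ps3 were few beside it, with 21 counts in Ide-/- and 37 in Ide+/+.

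Tcf3 (ENSMUSG00000020167; chromosome 10, 80409514 to 80433647, minus strand), whose E proteins E12 and E47 pair with PTF1A and with many other helix-loop-helix factors, was likewise at a similar level in most libraries. It had 4.399, 3.74 and 6.23 CPM in the Ide-/- libraries, against 1.002, 3.95, 3.95, 3.59 and 3.76 CPM in the Ide+/+ libraries. The low value of Ide+/+ replicate 1 rests on 10 counts, and the other Ide+/+ libraries lay within the Ide-/- range or just below it. Its fold change was 0.51 on the log2 scale (SE 0.35, edgeR adjusted p = 0.32), and 0.30 without Ide+/+ replicate 1.

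The ratio of 2 genes within a library does not depend on how libraries are scaled, so it compares the acinar factors with their broadly made partners directly. It does depend on the constant added before taking logarithms (0.05 TPM) where a factor is close to 0. In all, 15 such ratios were compared by a two-sided exact permutation test over the 56 splits of 8 libraries into 3 and 5, whose smallest possible p is 0.0179. Rbpjl to Rbpj was 0.624, 1.06 and 0.247 by TPM in Ide-/- libraries and 21.3, 18.9, 16.6, 39.0 and 41.4 in Ide+/+ libraries. In Ide+/+ islets RBPJL transcripts therefore outnumbered those of RBPJ in 5 of 5 libraries, whereas in Ide-/- islets they did so in 1 of 3. The difference was −5.41 on the log2 scale (exact permutation p = 0.0179, adjusted p = 0.0268 over the 15 ratios). Ptf1a to Rbpj differed by −6.81 and Ptf1a to Tcf3 by −7.56 (both exact permutation p = 0.0179, adjusted p = 0.0268). Both were lower in 3 of 3 Ide-/- libraries than in any Ide+/+ library, and without Ide-/- replicate 2 they were −7.42 and −8.31. Ptf1a to Tcf3 was −6.83 without Ide+/+ replicate 1. With 0.5 TPM added the differences were smaller, at −4.20 for Ptf1a to Rbpj, −4.70 for Ptf1a to Tcf3 and −4.61 for Rbpjl to Rbpj (each adjusted p = 0.0268).

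Nr5a2 (ENSMUSG00000026398; chromosome 1, 136842571 to 136960448, minus strand), the nuclear receptor that works with the PTF1 complex at enzyme genes, fell with a smaller fold change than Ptf1a or Rbpjl. Its Ide-/- levels were 0.446, 1.10 and 1.01 CPM, from 16, 27 and 11 counts. Its Ide+/+ levels were 17.1, 4.94, 5.79, 8.30 and 10.2 CPM. The lowest Ide+/+ value was several times the highest Ide-/- value, and replicate 1 was again the highest. The log2 fold change was −3.48 (SE 0.49, edgeR adjusted p = 0.0010), and pooled counts were 9.74-fold lower (95% counting interval 7.39 to 13.1). Nr0b2, which encodes SHP, a repressor of NR5A2 and a known target of it in liver, averaged 0.350 ± 0.0946 CPM in Ide-/- and 6.17 ± 3.65 CPM in Ide+/+ (SD, n = 3 and 5; log2 fold change −4.16, SE 0.63, edgeR adjusted p = 0.0014).

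Bhlha15 (ENSMUSG00000052271; chromosome 5, 144190286 to 144194441, plus strand), encoding MIST1, had the smallest fold change of the 4 acinar-restricted factors. It had 14.1, 11.96 and 12.6 CPM in Ide-/- libraries, from 505, 294 and 137 counts. It had 24.9, 25.8, 22.4, 53.2 and 29.9 CPM in Ide+/+ libraries. The groups did not overlap, the 3 Ide-/- values lay close together, and Ide+/+ replicate 4 was well above the others. By TPM Bhlha15 had the highest mean of the 8 factors in Ide-/- islets (4.93). The name acinar-restricted was given from known roles, and these levels do not bear it out for Bhlha15. The log2 fold change was −1.28 (SE 0.29, edgeR adjusted p = 0.010), and pooled counts were 2.26-fold lower (95% counting interval 2.10 to 2.44). The call was narrow, with an adjusted p of 0.0525 without Ide-/- replicate 2, 0.0508 without Ide-/- replicate 3 and 0.053 with the replicate number as a block. On log2(TPM + 1) values the fold change was −0.27 (limma adjusted p = 0.53).

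Of 5 genes known as MIST1 targets, 3 were lower and 0 higher in Ide-/- islets by edgeR (4 lower and 0 higher at an unadjusted p under 0.05, by DESeq2 and by limma-voom), with a median log2 fold change of −1.77 against −0.01 over all tested genes. By edgeR 10.6% of all tested genes were lower. Gjb1, the gap junction protein connexin 32, averaged 0.615 ± 0.375 CPM in Ide-/- and 31.7 ± 18.9 CPM in Ide+/+ (log2 fold change −5.50, edgeR adjusted p = 4.6e-04). Atp2c2, a calcium and manganese pump of the secretory pathway, averaged 0.133 ± 0.125 CPM in Ide-/- and 11.3 ± 7.12 CPM in Ide+/+ (−6.69, edgeR adjusted p = 8.6e-04). Both fold changes were larger than that of Bhlha15 itself. Atp2c2 had 7 counts in all Ide-/- libraries together and 830 in Ide+/+. It passed the low-count filter through Ide+/+ libraries only, so its call adds little to the count. Rab26, a GTPase of secretory granules, averaged 4.43 ± 1.13 CPM in Ide-/- and 15.2 ± 6.22 CPM in Ide+/+ (−1.77, edgeR adjusted p = 0.0062, but 0.0871 on log2(TPM + 1) values). Rab3d, a granule GTPase also made in islets, was not called (−0.92, edgeR adjusted p = 0.054), although it was called without Ide+/+ replicate 2, 3 or 5 (adjusted p 0.0466, 0.0434 and 0.0458). The cell cycle inhibitor gene Cdkn1a had a fold change of −0.05 (edgeR adjusted p = 0.93). MIST1 is also made in plasma cells, and of 6 B and plasma cell genes 4 were tested and 3 were lower, at a summed 1.45 to 1.74 CPM in Ide-/- and 3.00 to 21.04 CPM in Ide+/+. That count was 1 without any single Ide-/- library and 2 without Ide+/+ replicate 1, 2, 3 or 4. The plasma cell genes Jchain and Mzb1 had 10 and 9 counts in all Ide-/- libraries together and 64 and 11 in all Ide+/+ libraries, and their part in the level of Bhlha15 was not tested.

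Gata4 (ENSMUSG00000021944; chromosome 14, 63198922 to 63271692, minus strand) and Gata6 (ENSMUSG00000005836; chromosome 18, 11052064 to 11085635, plus strand) bind the same DNA motif and share much of their work in the embryonic pancreas, but their levels differed here. Gata4 had 2, 2 and 4 counts in Ide-/- libraries, or 0.0557, 0.0814 and 0.367 CPM. Its Ide+/+ libraries had 38, 43, 28, 47 and 21 counts, or 3.81, 1.10, 0.995, 2.77 and 2.25 CPM. No Ide-/- library reached the lowest Ide+/+ library, although all counts were small. The log2 fold change was −4.04 (SE 0.72, edgeR adjusted p = 0.0035), −4.87 without Ide-/- replicate 3, and pooled counts were 15.2-fold lower (95% counting interval 7.57 to 35.8).

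Gata6 had 2.87, 3.82 and 4.13 CPM in Ide-/- libraries and 2.41, 4.18, 4.44, 4.59 and 4.94 CPM in Ide+/+ libraries. The groups overlapped because of Ide+/+ replicate 1, the other Ide+/+ libraries being slightly above all Ide-/- libraries. On the log2 scale Gata6 differed by −0.21 (SE 0.26, edgeR adjusted p = 0.60) and −0.34 without that library. The ratio of Gata4 to Gata6 was 0.0208, 0.0203 and 0.0885 by TPM in Ide-/- libraries and 2.09, 0.302, 0.232, 0.642 and 0.395 in Ide+/+ libraries. It was lower in 3 of 3 Ide-/- libraries than in any Ide+/+ library and differed by −3.18 on the log2 scale (exact permutation p = 0.0179, adjusted p = 0.0268 over the 15 ratios). With 0.5 instead of 0.05 TPM added, the difference was −1.50 (adjusted p = 0.0487). A transcript on the opposite strand of Gata6, 1010001N08Rik, had 58 counts in Ide-/- and 234 in Ide+/+, beside 242 and 437 of Gata6. Since the strand setting of the counting is not given in the sources used here, reads where these genes overlap cannot be told apart. The same holds for Rbpjl with Matn4 (2 counts in Ide-/-, 124 in Ide+/+) and for Ptf1a with Ptf1aos (0 and 4 counts), which are small beside the members.

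GATA4 and GATA6 are also made outside acinar cells, and markers of other cell types moved in different ways. Of 4 mesothelial genes 1 was tested and lower, and their sum was 2.20 to 3.05 CPM in Ide-/- and 12.4 to 32.6 CPM in Ide+/+, with the defining genes Wt1 and Lrrn4 at 0 counts in Ide-/- and 18 and 5 in Ide+/+. Of 9 stromal genes 1 was lower, with sums of 238 to 350 CPM in Ide-/- and 136 to 579 CPM in Ide+/+. Of 9 endothelial genes 0 were called by edgeR (0 at an unadjusted p under 0.05, by DESeq2 and by limma-voom, and 4 higher by limma on log2(TPM + 1)), with sums of 247 to 346 CPM in Ide-/- and 102 to 360 CPM in Ide+/+. Over all tested genes 10.6% were lower and 10.4% higher by edgeR, and 5925 of 16266 were higher by limma on log2(TPM + 1). The part of these cells in the levels of Gata4 and Gata6 was not tested.

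**Figure D2:**
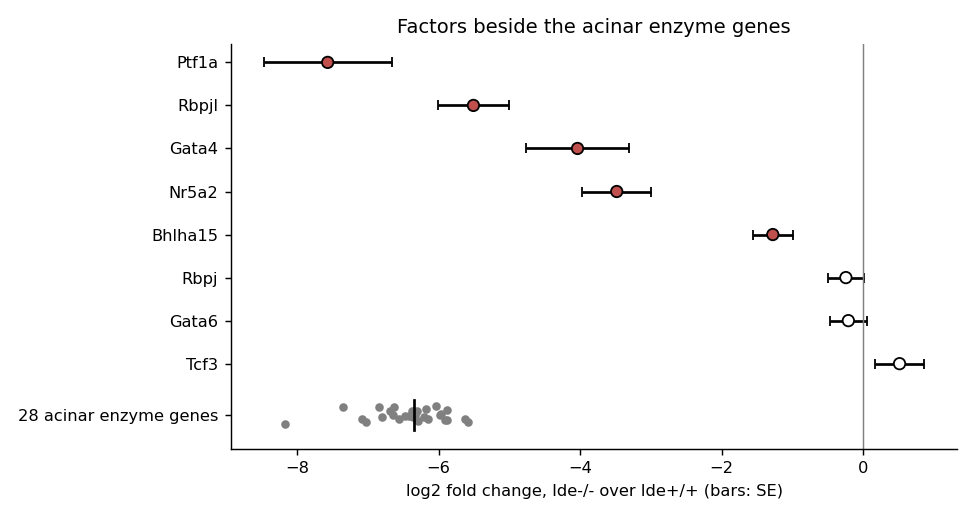
Log2 fold change, Ide-/- over Ide+/+, of each factor with its SE (bars), filled where the adjusted p was under 0.05, and of each of 28 acinar enzyme genes (grey points, with a line at their median). The factors run from −7.57 for Ptf1a to 0.51 for Tcf3. Only Ptf1a lies within the range of the enzymes, with Rbpjl (−5.51) just outside it.

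The factors were set beside 28 genes of the digestive enzymes and their helpers. All 28 of these genes were lower in Ide-/- islets, with a median log2 fold change of −6.35 and a range of −8.17 to −5.58. Over all tested genes 10.6% were lower by edgeR. The value of −8.17 is that of Prss1, with 1 count in all Ide-/- libraries together and 617 in Ide+/+. Prss1 passed the low-count filter through Ide+/+ libraries only. Cckar, the receptor for cholecystokinin, had −6.65, the chymotrypsin Ctrc −6.36, the lipase-related Pnliprp2 −6.47 and the trypsin inhibitor Spink1 −5.63. The fold change of Ptf1a, which rests on 6 Ide-/- counts, was more negative than that of 27 of the 28 genes. Each of the other 7 factors had a smaller fold change than all 28. For Rbpjl the margin was well within the SE, at −5.51 (SE 0.50) beside −5.58 (SE 0.87) for Clps. These enzyme genes were grouped by their function in acinar cells, and they share the libraries with the factors.

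Set against the summed enzyme transcripts of the same library, Ptf1a and Rbpjl had overlapping groups and the other 6 factors did not. The enzymes themselves fell by a median log2 fold change of −6.35, so a gene that was unchanged or fell less is raised on this ratio by that alone. How many of all genes are apart on this ratio was not counted. Ptf1a amounted to 4.96, 16.0 and 0 TPM for each 1000000 TPM of enzymes in Ide-/- libraries and to 25.7, 20.7, 24.8, 16.5 and 14.2 in Ide+/+ libraries. Those groups overlapped, the log2 difference was −0.98 (exact permutation p = 0.0893, adjusted p = 0.122), and its sign turned to 1.44 (adjusted p = 0.0268) when 0.5 instead of 0.05 TPM was added to Ptf1a, whose Ide-/- values are below both. Rbpjl amounted to 167, 146 and 27.5 TPM in Ide-/- libraries and to 43.8, 105, 95.2, 82.2 and 47.3 in Ide+/+ libraries. That difference was 0.42 (exact permutation p = 0.518, adjusted p = 0.598) and −0.03 without Ide-/- replicate 1, and 1.03 (adjusted p = 0.156) with 0.5 TPM added. With groups of 3 and 5, a p above the threshold does not show that these ratios were equal.

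The remaining factors were all higher relative to the enzymes in 3 of 3 Ide-/- libraries than in any Ide+/+ library. For Rbpj, Gata6 and Tcf3, which were not called by edgeR, this restates the lower enzyme sum and is no separate result. For Nr5a2, Gata4 and Bhlha15 it restates fold changes smaller than those of the enzymes, and is no separate result either. Nr5a2 amounted to 36.4, 25.7 and 26.7 TPM for each 1000000 TPM of enzymes in Ide-/- libraries and to 3.41, 5.13, 6.20, 2.64 and 2.66 in Ide+/+ libraries. Gata4 amounted to 6.62, 4.01 and 13.4 in Ide-/- libraries and to 1.40, 2.22, 1.97, 1.83 and 1.14 in Ide+/+ libraries. Bhlha15 amounted to 1001, 383 and 310.4 in Ide-/- libraries and to 6.53, 33.5, 28.1, 23.1 and 10.2 in Ide+/+ libraries. The log2 differences in these TPM ratios were 2.81 for Gata4, 3.14 for Nr5a2, 4.85 for Bhlha15, 5.83 for Rbpj, 5.99 for Gata6 and 6.58 for Tcf3 (each exact permutation p = 0.0179, adjusted p = 0.0268). That of Tcf3 was 5.94 without Ide+/+ replicate 1, and with 0.5 TPM added those of Gata4 and Nr5a2 were 4.25 and 3.95 (each adjusted p = 0.0268). With either constant, Gata4, Nr5a2 and Bhlha15 stood between Rbpjl and the broadly made factors on this measure.

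**Figure D3:**
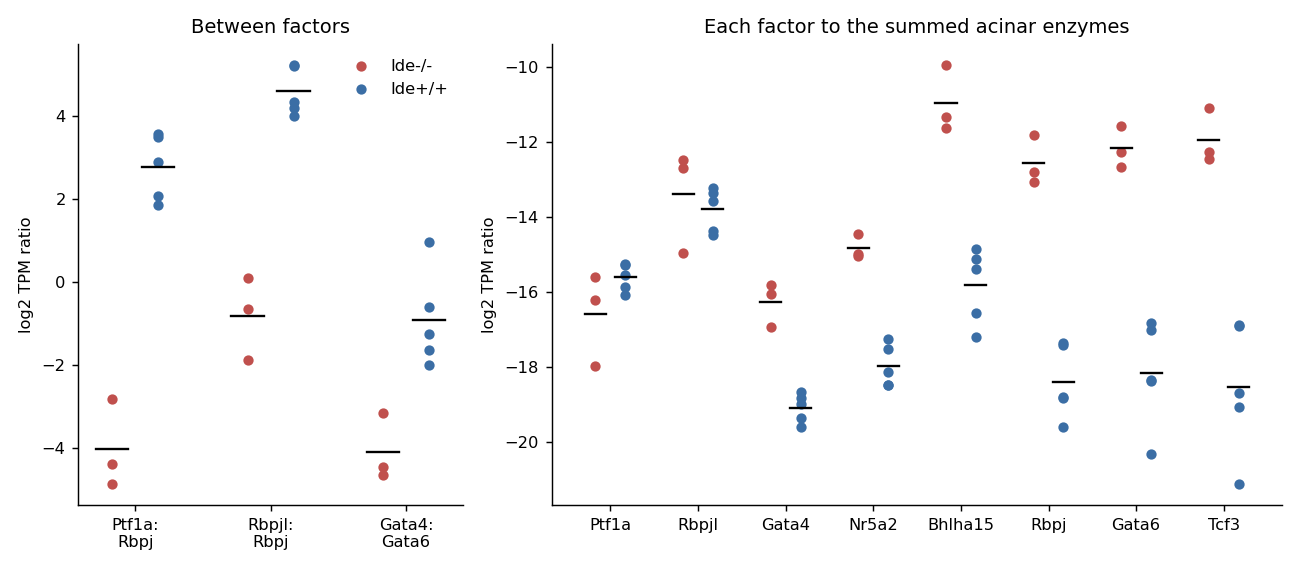
Log2 ratios of TPM within each library, Ide-/- (red) left of Ide+/+ (blue), with lines at group means; the left panel compares factors with each other and the right panel compares each factor with the sum of 28 acinar enzyme genes. In the right panel the groups overlap for Ptf1a and Rbpjl and are apart for the other 6 factors, with differences of 2.81 to 6.58. The enzyme sum was itself lower in Ide-/-, which raises any gene in that panel that was unchanged or fell less.

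Set against genes of the islet secretory granule, Rbpj, Tcf3 and Gata6 did not differ between genotypes beyond the spread of the libraries. For each 1000000 TPM of 13 granule genes, Rbpj amounted to 402, 534 and 623 TPM in Ide-/- libraries and to 620.1, 461, 500.3, 574 and 523 in Ide+/+ libraries. Its log2 difference was −0.09 (exact permutation p = 0.607, adjusted p = 0.651). Tcf3 differed by 0.66 (exact permutation p = 0.429, adjusted p = 0.536) and Gata6 by 0.07 (exact permutation p = 0.911, adjusted p = 0.911). The difference of Rbpj was 0.08 without Ide-/- replicate 1. That of Gata6 was −0.30 without Ide+/+ replicate 1, −0.02 without Ide-/- replicate 2 and −0.09 without Ide-/- replicate 3.

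By TPM the order of the factors differed between the genotypes. In Ide-/- islets Bhlha15 led with a mean of 4.93 ± 1.06 TPM, followed by Tcf3 with 2.45 ± 0.259, Gata6 with 2.10 ± 0.312, Rbpj with 1.58 ± 0.148 and Rbpjl with 1.06 ± 0.736 TPM (SD, n = 3). Below them were Nr5a2 with 0.293 ± 0.0643, Gata4 with 0.0867 ± 0.0723 and Ptf1a with 0.0767 ± 0.108 TPM. In Ide+/+ islets Rbpjl led with 25.1 ± 6.17 TPM, followed by Ptf1a with 7.32 ± 2.87 and Bhlha15 with 6.50 ± 2.78 TPM (SD, n = 5). Nr5a2 and Gata6 both averaged 1.33 TPM, with Tcf3 at 1.15 ± 0.786, Rbpj at 1.03 ± 0.370 and Gata4 at 0.594 ± 0.133 TPM. In Ide-/- islets the neighbours Tcf3 and Gata6, Rbpj and Rbpjl, and Gata4 and Ptf1a kept their order in only 2 of 3 libraries. In Ide+/+ islets Rbpjl was above Ptf1a in 5 of 5 libraries and Bhlha15 above Nr5a2 in 5 of 5, whereas Ptf1a was above Bhlha15 in 2 of 5 and the ranks from Nr5a2 downward changed places between libraries.

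Within the Ide+/+ group only Ptf1a was higher on both scales, CPM and TPM, in the libraries with more acinar RNA. Replicates 1, 4 and 5, with enzyme shares of 42.1% to 45.6%, had 15.6 to 39.9 CPM of Ptf1a, against 6.49 and 8.07 CPM in replicates 2 and 3, with shares of 26.3% and 26.7%. By TPM Ptf1a was at 6.09 to 12.3 in replicates 1, 4 and 5 and at 5.04 and 6.04 in replicates 2 and 3. Rbpjl, Nr5a2 and Gata4 were higher in replicates 1, 4 and 5 by CPM but not by TPM. Rbpjl, for example, had 20.9, 35.5 and 20.3 TPM in replicates 1, 4 and 5 and 25.5 and 23.2 TPM in replicates 2 and 3. The TMM factors of replicates 1, 4 and 5 were 0.405 to 0.641, against 1.18 and 1.15 in replicates 2 and 3. Tcf3 was lower in replicates 1, 4 and 5 on both scales, and Bhlha15 did not separate these libraries on either. This is a description of 5 libraries, and replicates 2 and 3 are close to each other, so no test was made.

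The products of 6 E protein and ID genes dimerise with PTF1A and TCF3 or sequester E proteins from DNA. Of these genes 1 was lower and 0 were higher by edgeR, beside 10.6% and 10.4% of all tested genes. At an unadjusted p under 0.05, 1 was higher, and 0 were higher by DESeq2 or limma-voom. The median log2 fold change was 0.15. Id2, an inhibitor of E proteins, averaged 3.38 ± 1.67 CPM in Ide-/- and 17.2 ± 3.41 CPM in Ide+/+ (log2 fold change −2.30, SE 0.31, edgeR adjusted p = 9.0e-04). The E protein genes Tcf12 and Tcf4 had fold changes of 0.60 (edgeR adjusted p = 0.070) and 0.14 (adjusted p = 0.70). Tcf12 was called higher without Ide+/+ replicate 5 (0.72, edgeR adjusted p = 0.0354) and on log2(TPM + 1) values (1.19, limma adjusted p = 0.0106). On that last scale the median of all tested genes was 0.50, and 5925 of 16266 were called higher.

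Of 18 genes of Notch signalling and RBPJ cofactors, 1 was higher and 1 lower by edgeR, with a median log2 fold change of 0.01. These counts are no more than the shares over all tested genes, 10.4% higher and 10.6% lower. Jag2, a Notch ligand, averaged 4.396 ± 1.36 CPM in Ide-/- and 2.16 ± 0.518 CPM in Ide+/+ (0.97, SE 0.28, edgeR adjusted p = 0.030). The Notch target Heyl averaged 1.04 ± 0.110 CPM in Ide-/- and 2.75 ± 0.758 CPM in Ide+/+ (−1.39, SE 0.32, edgeR adjusted p = 0.012). Neither call was firm. Jag2 was not called without Ide+/+ replicate 4 (adjusted p = 0.0601) or without Ide-/- replicate 1, 2 or 3 (0.0618, 0.057 and 0.147), and Heyl was not called without Ide-/- replicate 2 or 3 (0.0514 and 0.0501). With the replicate number as a block neither was called (0.0986 for Jag2 and 0.110 for Heyl).

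Of the other GATA genes and their FOG cofactors, 2 of 6 were tested and 0 were called by edgeR (1 lower at an unadjusted p under 0.05 and by DESeq2, 0 by limma-voom). Gata2 averaged 1.57 ± 0.633 CPM in Ide-/- and 1.05 ± 0.530 CPM in Ide+/+ (0.46, edgeR adjusted p = 0.51). Zfpm1, encoding FOG1, averaged 0.357 ± 0.180 CPM in Ide-/- and 0.983 ± 0.592 CPM in Ide+/+ (−1.57, edgeR adjusted p = 0.070), and was called without Ide+/+ replicate 1 (−1.71, adjusted p = 0.0433). Gata1 and Gata3 had 0 counts in Ide-/- and 1 and 6 in Ide+/+, and Gata5 had 0 counts in every library, so Gata6, Gata2 and Gata4 were the GATA genes with more than 10 counts in all.

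Of 15 further pancreatic factors, several of them made in duct cells as well, 14 were tested, 6 were lower and 0 higher by edgeR (1 higher at an unadjusted p under 0.05 and by DESeq2), with a median log2 fold change of −0.75. Over all tested genes 10.6% were lower and 10.4% higher. Sox9, a factor of duct and progenitor cells, averaged 2.54 ± 0.771 CPM in Ide-/- and 12.7 ± 3.07 CPM in Ide+/+ (−2.32, SE 0.28, edgeR adjusted p = 5.6e-04). Onecut1, a factor of duct development, averaged 0.277 ± 0.121 CPM in Ide-/- and 2.49 ± 0.776 CPM in Ide+/+ (−3.30, SE 0.47, edgeR adjusted p = 0.0010). Foxa3, a forkhead factor, averaged 1.98 ± 0.124 CPM in Ide-/- and 8.32 ± 3.91 CPM in Ide+/+ (−2.05, SE 0.35, edgeR adjusted p = 0.0027, but 0.0690 on log2(TPM + 1) values). Hnf4a (−0.93), Prox1 (−0.69) and the Nr0b2 gene given above were the other members that fell, and Hnf4a and Prox1 were not called with the replicate block or with secretory granule scaling. Without single libraries the count lay between 4 and 6. On log2(TPM + 1) values the median was 0.08, against 0.50 over all tested genes, with 3 lower and 1 higher. Duct markers moved with these factors, with 5 of 8 lower (3 without Ide+/+ replicate 4 or any single Ide-/- library) and sums of 156 to 190.5 CPM in Ide-/- and 296 to 1081 CPM in Ide+/+. Macrophage markers did so too, with 6 of 7 lower and sums of 16.96 to 21.7 CPM in Ide-/- and 51.5 to 99.6 CPM in Ide+/+, and the part of either cell type in these levels was not tested.

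**Figure D4:**
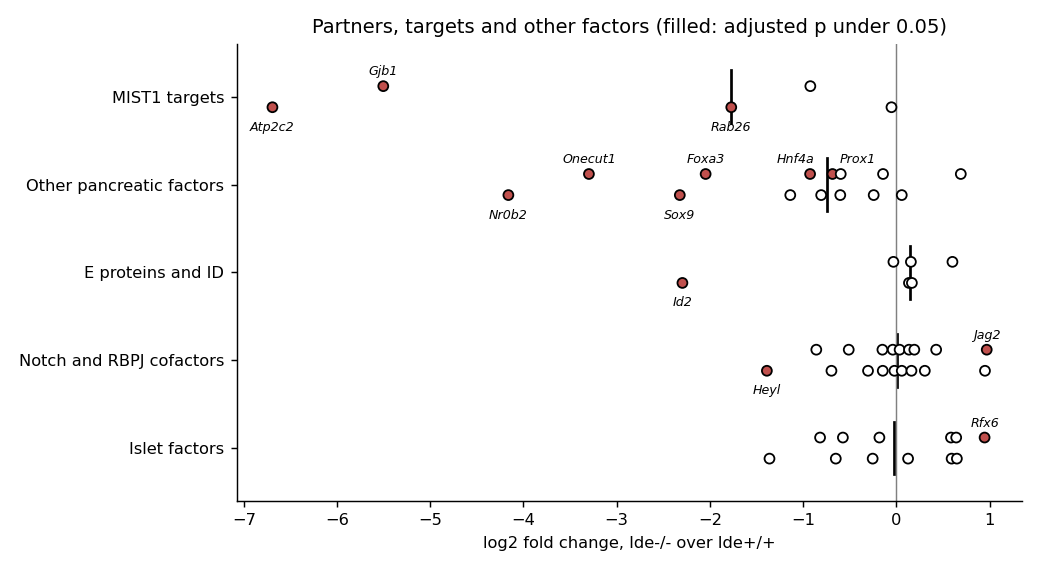
Log2 fold change, Ide-/- over Ide+/+, of single genes in 5 lists (points, filled where the adjusted p was under 0.05), with a line at each median. The called genes of the MIST1 targets and of the other pancreatic factors lie left of 0, and the medians of the E proteins with ID genes, of the Notch genes and of the islet factors lie between −0.03 and 0.15.

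For each factor the genes with the nearest profile were sought among 13255 tested genes with a symbol and a mean of at least 1 CPM, by the root mean square distance of centred log2 CPM over the 8 libraries. Nearest to Ptf1a were Cckar (distance 0.387), the aquaporin gene Aqp12 (0.396) and 1810007D17Rik (0.482). Nearest to Rbpjl were Sardh (0.265), a mitochondrial sarcosine dehydrogenase, Gjb1 (0.481) and 5430419D17Rik (0.491). Nearest to Nr5a2 were Gstt3 (0.276), the amino acid transporter Slc38a5 (0.278) and Adhfe1 (0.295), and nearest to Gata4 were Sntb1 (0.190), Rasef (0.316) and Gm13010 (0.335). Nearest to Bhlha15 were Extl3 (0.127), Psph (0.173), an enzyme of serine synthesis, and Gm12918 (0.180). The factors that were not called had other neighbours. Those of Rbpj were Zadh2 (0.0472), Tmem19 (0.0576) and Bloc1s6 (0.0797). Those of Gata6 were Mgll (0.105), Rhoc (0.108) and Gm38115 (0.117). Those of Tcf3 were the endothelial cadherin gene Cdh5 (0.0757), Tril (0.0825) and Sun2 (0.0964). Genes that vary little lie close to many others, so these distances are not comparable between factors.

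**Figure D5:**
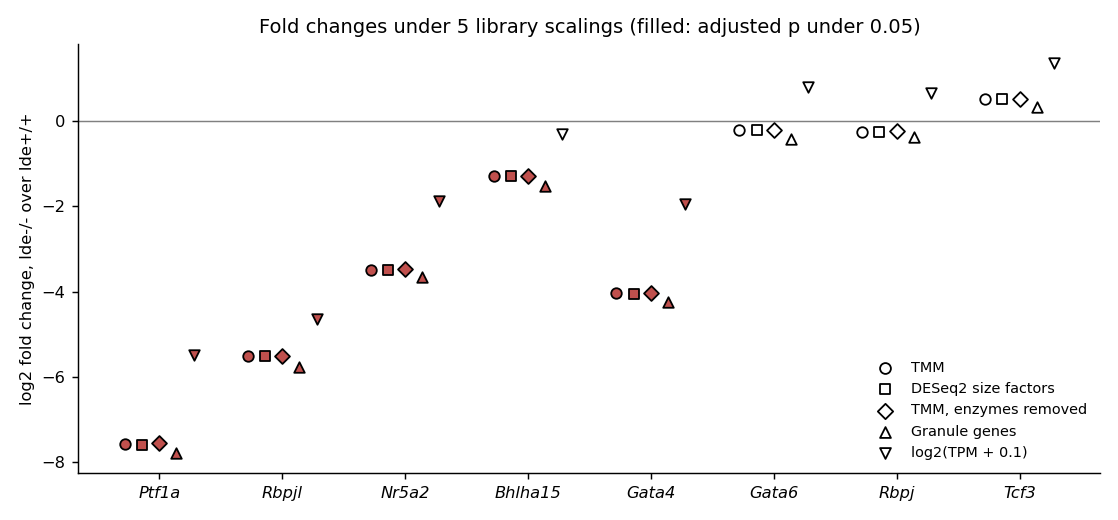
Log2 fold change of each factor, Ide-/- over Ide+/+, under 5 ways of setting libraries to a common level (symbols in the legend), filled where the adjusted p was under 0.05. Ptf1a, Rbpjl, Nr5a2 and Gata4 are filled and below 0 under all 5, Bhlha15 loses its call on log2(TPM + 0.1), and Rbpj and Gata6 change sign there.

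Enzymes took up a large share of the Ide+/+ libraries, so the fold changes were also computed under other scalings and tests. Ptf1a, Rbpjl, Nr5a2 and Gata4 were called lower under all 18 alternatives tried, Bhlha15 under 13 of 18, and Rbpj, Tcf3 and Gata6 under 0 of 18. These alternatives reuse the same libraries and are not independent tests. Ptf1a and Gata4 were tested mainly through Ide+/+ libraries, with 6 and 8 counts in all Ide-/- libraries together. On log2(TPM + 1) and log2(TPM + 0.1) values the median of all tested genes moved to 0.50 and 0.83. Rbpj was then at 0.37 and 0.65 and Gata6 at 0.46 and 0.80, above 0, and at −0.13 and −0.18 (Rbpj) and −0.04 and −0.03 (Gata6) relative to those medians. Bhlha15 was at −0.27 and −0.30, and −0.77 and −1.13 relative to the medians. With libraries scaled to granule genes the median of all genes was −0.19, and Ptf1a, Rbpjl, Nr5a2, Gata4 and Bhlha15 were at −7.80, −5.77, −3.67, −4.24 and −1.53.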

How the data were processed

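RNA-seq libraries of 3 Ide-/- and 5 Ide+/+ islet samples were compared. Per the labels' protocols, libraries were built with a low-input NEB kit from 100 ng of RNA (integrity number above 6.5). Reads were processed with STAR 2.7.1a and RSEM 1.3.1 on GRCm38, per the submitters' processing notes. For the annotation release and strand setting, nothing is given in the sources used here. The authors deposited, for each sample, RSEM expected counts without normalization, TPM values corrected for transcript length, and the length itself, per the file headers. Groups follow the genotype in the titles, and 0 other columns of per-sample values were left unused. Symbols and positions came from GENCODE M21, with a symbol for 55141 of 55487 identifiers.

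Expected counts were rounded and tested with edgeR 4.0.16 in R 4.3.3 (robust quasi-likelihood F test, TMM, filterByExpr with a minimum count of 10 and a total of 15, genotype the only term), with Benjamini-Hochberg adjustment over all tested genes. SE was taken as the fold change (log2) over the root of F. Ratios used TPM with 0.05 added to the factor and were compared with SciPy 1.17.1. Counting intervals are exact (Clopper-Pearson) on pooled counts. Alternatives used limma 3.58.1, DESeq2 1.42.0, other scalings and filters, a replicate block, and each library left out. On simulated counts of these group sizes (14853 genes after the filter), the test found 19% of 2-fold and 84% of 4-fold changes, and 2 of its 105 calls were false, none by a wrong sign. All simulated libraries started from the mean Ide+/+ profile, without the shift in enzyme share seen between the genotypes. The simulation therefore does not show how often calls are false under such a shift.

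The 8 members and all lists were chosen with earlier results of these data known. Named genes were all members, up to 4 called genes of each list by smallest p (otherwise the 2 of highest mean CPM), and the 3 nearest profiles of each member. Rab3d, Cdkn1a, Tcf12, Tcf4, Hnf4a, Prox1, Gata1, Gata3 and Gata5, the marker genes at few counts and the factors of the islet list beyond Rfx6 were named after their values were seen. In the islet list, 2 genes are not reported here.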

Additional observations from a re-analysis of the deposited data

Results flagged for a closer look

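Of 23 sets of Ide+/+ values examined (8 factors and 15 ratios, 5 libraries each), 3 had a library whose gap to the nearest other library exceeded the 95% critical value of Dixon's test (0.71 of the range). Chance does this in about 5% of sets, and the sets are not independent. Bhlha15 was high in Ide+/+ replicate 4 at 53.2 CPM, with the other Ide+/+ libraries at 22.4 to 29.9 CPM, and its fold change without that library was −1.0 (edgeR adjusted p = 0.0107). Tcf3 was low in Ide+/+ replicate 1 at 1.002 CPM, with the others at 3.59 to 3.95 CPM. The log2 ratio of Tcf3 to granule genes was also low in that library, at −12.88 against −10.60 to −10.23. This is the library with female Xist counts and 0.512% of mitochondrial transcripts, and their part in these values was not tested.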

How the results depend on the processing

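Replicate numbers did not pair the samples (correlations of same-numbered deviations 0.0485, 0.0092 and −0.0934, and 0 of 3 Ide-/- libraries matched its own number best). With the replicate block 465 genes were higher and 706 lower, and Bhlha15 was at −0.92 (adjusted p = 0.053). With granule scaling 514 genes were higher and 1509 lower (25.4% higher, against 49.6%). With limma on log2(TPM + 1), 5925 were higher and 415 lower, Bhlha15 was at −0.27, Rbpj at 0.37 and Gata6 at 0.46. On log2(TPM + 0.1) the counts were 4737 and 389, with Bhlha15 at −0.30, Rbpj at 0.65 and Gata6 at 0.80. The cause was not tested, though these scalings change the level set for all libraries. Adding 0.5 TPM to the factors moved the log2 ratios of Ptf1a to Rbpj to −4.20, Ptf1a to Tcf3 to −4.70, Rbpjl to Rbpj to −4.61, Gata4 to Gata6 to −1.50, and Gata4, Nr5a2 and Rbpjl to enzymes to 4.25, 3.95 and 1.03. It also turned the ratio of Ptf1a to enzymes to 1.44 and that of Gata6 to granule genes to −0.17, which was −0.061 by counts. Leaving out single libraries gave 694 to 2141 genes higher and 809 to 2139 lower. The counts were 993 higher and 1101 lower without Ide+/+ replicate 4, and 864 and 971, 785 and 809, and 694 and 853 without Ide-/- replicates 1, 2 and 3. Bhlha15 then ran from −1.38 to −1.0. With an Ide-/- library left out only 21 splits remain, and no ratio passed after adjustment over the 15 ratios (smallest adjusted p of the exact permutation test 0.0649). Log2 differences of the ratios ran from −5.86 to −4.88 (Rbpjl to Rbpj), −7.42 to −6.39 (Ptf1a to Rbpj), −8.31 to −6.83 (Ptf1a to Tcf3) and −3.64 to −2.71 (Gata4 to Gata6). To enzymes they ran from −1.47 to −0.30 (Ptf1a), −0.033 to 1.21 (Rbpjl), 4.34 to 5.18 (Bhlha15), 2.95 to 3.31 (Nr5a2), 2.59 to 3.15 (Gata4), 5.46 to 6.33 (Gata6), 5.46 to 6.09 (Rbpj) and 5.94 to 6.995 (Tcf3). To granule genes they ran from −0.24 to 0.082 (Rbpj), 0.17 to 0.84 (Tcf3) and −0.30 to 0.34 (Gata6). Summing Ide+/+ replicates 2 and 3, chosen after seeing the data, gave 1359 higher and 1637 lower and the same calls for all 8 factors. The Ide-/- counts of Ptf1a (6) and Gata4 (8) limit the precision of their fold changes. Every alternative kept them lower, but the alternatives reuse the same libraries.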

Other observations

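Factors of the endocrine islet were measured in the same libraries, in which 10.4% of all tested genes were higher and 10.6% lower by edgeR. Of 12 such genes 1 was higher and 0 lower in Ide-/- islets by edgeR (4 higher and 1 lower at an unadjusted p under 0.05, 2 and 1 by DESeq2, 2 and 0 by limma-voom), with a median log2 fold change of −0.03. Rfx6, a factor of endocrine development, averaged 74.1 ± 5.09 CPM in Ide-/- and 38.4 ± 4.76 CPM in Ide+/+ (SD, n = 3 and 5; 0.95, SE 0.19, edgeR adjusted p = 0.0053), a call lost with secretory granule scaling (adjusted p = 0.114) and with the replicate block (0.0744). Pdx1, which is made in beta cells and at a lower level in acinar cells, averaged 9.501 ± 3.91 CPM in Ide-/- and 17.04 ± 10.3 CPM in Ide+/+ (−0.82, edgeR adjusted p = 0.20). Without Ide+/+ replicate 1, 3 islet factors were higher and 3 lower, beside 2141 and 2139 of all 16028 genes tested then. Pax6 (0.66, adjusted p = 0.0370) and Isl1 (0.64, 0.0497) joined Rfx6, and Pou3f4 (−1.45, 0.0403) was among the lower genes. Of 13 granule genes 3 were higher and 0 lower by edgeR (3 higher and 0 lower at an unadjusted p under 0.05 and by DESeq2), namely Vgf (2.02), Ptprn (1.16) and Pam (0.79). The higher count of granule genes was 0 without Ide-/- replicate 1 or with the replicate block. It was 1 without Ide-/- replicate 2 or 3, without Ide+/+ replicate 4 or with secretory granule scaling. Without Ide+/+ replicate 5, 2 were higher and 1 lower. On log2(TPM + 1) values 5 were higher, a scale on which 5925 of all 16266 tested genes were. Of 6 islet hormone genes 1 was higher, Sst (1.36, edgeR adjusted p = 0.047). That count was 0 without any single library other than Ide+/+ replicate 1, and 0 with DESeq2 size factors, granule scaling, the replicate block or Ide+/+ replicates 2 and 3 summed.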
